A study of Mus musculus with 6 samples.

Results

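Jun, Mapkapk3, Dusp14 and Tnfrsf12a are 4 genes of the mitogen-activated protein kinase (MAPK), AP-1 and TWEAK signalling routes, and they make up 4 of the 54 gene rows in the deposited islet table. They were taken by name, and the table they come from had itself been picked on these libraries, so the diet differences below are a description and carry no test. Pancreatic islets, groups of hormone-secreting cells among which beta cells make insulin, were isolated from C57BL/6 mice fed high-fat food (3 libraries) or normal food (control diet, 3 libraries), and their RNA was sequenced. The sample labels give 22 weeks of feeding for both diets, whereas the series text gives 27 weeks. Age, sex and the number of mice behind a library are not stated in the sources used here, so the spread between libraries may be biological or technical. Levels are FPKM, sequenced fragments scaled by transcript length and by library total, which sets genes of different length on one scale. Sequencing depth cannot be read from such values and is unknown here.

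MAPK cascades carry signals from the cell surface and from stress to the nucleus. Their end kinases, ERK, JNK and p38, are switched on by phosphorylation and switched off by phosphatases, and in beta cells JNK and p38 are known to respond to inflammatory cytokines and to oxidative and lipid stress. Tnfrsf12a encodes Fn14, the small cell-surface receptor of the cytokine TWEAK, which recruits TRAF adaptor proteins and can activate NF-kappaB and MAPK signalling. Mapkapk3 encodes MK3, a kinase activated by p38 that acts on RNA-binding proteins and small heat shock proteins. Dusp14 encodes a dual-specificity phosphatase that can dephosphorylate MAP kinases. Jun encodes c-Jun, a basic leucine zipper subunit of the AP-1 transcription factor, a target of JNK and a known activator of its own promoter.

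All 4 are protein-coding genes on the minus strand. On GRCm38 (GENCODE M21), Jun (ENSMUSG00000052684) lies on chromosome 4 from 95049034 to 95052222 and has a single exon. Mapkapk3 (ENSMUSG00000032577) lies on chromosome 9 from 107254927 to 107289877 and has 8 annotated transcripts. Dusp14 (ENSMUSG00000018648) lies on chromosome 11 from 84048041 to 84069261 and has 5. Tnfrsf12a (ENSMUSG00000023905) lies on chromosome 17 from 23675445 to 23677468 and has 6. The antisense gene Junos shares 232 of the 3189 exon bases of Jun (7.28%) on the opposite strand, and without a stated strand setting reads there cannot be assigned to one or the other. Of the 1891 distinct 50-base stretches in Dusp14 transcripts, 25 also occur in Gm18555. No 50-base stretch of Mapkapk3 or Tnfrsf12a transcripts was found in an annotated transcript of another gene.

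Promoter windows were taken from RefSeq (GRCm38.p6), which holds all 4 genes, with a second window for Mapkapk3. Each window runs from 250 bases before a gene's start to 50 bases after it. The stretches before the annotated starts of Jun, Mapkapk3 and Tnfrsf12a are shown because the first 2 genes were higher and the last was lower on the high-fat diet. Capitals mark the searched motifs found on either strand, written 5′ to 3′ along the gene. Jun is chr4:95052223-95052472, Mapkapk3 is chr9:107289878-107290127 and Tnfrsf12a is chr17:23677469-23677699, all on the minus strand.
Jun: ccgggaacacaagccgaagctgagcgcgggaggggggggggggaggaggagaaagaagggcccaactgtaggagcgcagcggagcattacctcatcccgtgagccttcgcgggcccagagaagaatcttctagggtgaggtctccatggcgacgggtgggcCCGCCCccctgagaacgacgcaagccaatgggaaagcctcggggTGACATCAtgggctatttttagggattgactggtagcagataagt
Mapkapk3: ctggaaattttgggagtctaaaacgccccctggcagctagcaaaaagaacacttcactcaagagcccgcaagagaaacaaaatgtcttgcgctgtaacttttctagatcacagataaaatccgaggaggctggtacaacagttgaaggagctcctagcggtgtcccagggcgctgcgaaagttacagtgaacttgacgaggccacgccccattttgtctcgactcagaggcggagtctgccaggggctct
Tnfrsf12a: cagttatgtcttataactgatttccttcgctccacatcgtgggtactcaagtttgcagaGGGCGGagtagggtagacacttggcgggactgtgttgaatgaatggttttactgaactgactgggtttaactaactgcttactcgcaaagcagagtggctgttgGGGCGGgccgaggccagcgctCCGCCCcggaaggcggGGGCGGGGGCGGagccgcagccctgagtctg

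The Jun window held the ATF-type AP-1 sequence TGACATCA, whose first base lies 45 bases before the start, and a GC box, GGGCGG read on the opposite strand, 89 bases before it. TGACATCA occurs in 3.62% of all 32851 RefSeq promoter windows of that length and GGGCGG in 35.7%. The Tnfrsf12a window held 5 matches to GGGCGG, 4 of them between 87 and 44 bases before its RefSeq start, and 2 of those 4 directly adjoin each other. The Dusp14 window held 1 match to GGGCGG, 21 bases before its RefSeq start. That window lies largely within other annotated Dusp14 transcripts and is not printed. The first Mapkapk3 window held no searched motif, and the second held 1 E-box, CACGTG, 167 bases before its start, a motif in 7.15% of all windows. The AP-1 sequence TGANTCA (7.81% of windows), the CRE TGACGTCA (1.79%), the TATA box TATAAA (13.6%), the CArG box (1.63%) and the kappaB consensus (4.51%) were not in any of the 5 windows. Both strands were searched. A match is a run of letters and not evidence of binding, and a missing match says nothing of the factor.

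Tnfrsf12a, the receptor at the cell surface, was lower on the high-fat diet. Its level was 1.75, 2.41 and 2.37 FPKM in high-fat libraries, against 4.34, 4.26 and 4.97 FPKM in control libraries. The diets did not overlap, and the lowest control library was 1.77 times the highest high-fat library. Its mean was 2.17 ± 0.368 FPKM on the high-fat diet and 4.52 ± 0.387 FPKM on the control diet (SD, n = 3 each), a log2 ratio of means of -1.06. High-fat replicate 1 was the lowest of the 6 libraries, and the spread relative to the mean was 16.9% on the high-fat diet and 8.56% on the control diet.

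Mapkapk3, the p38-activated kinase, was higher on the high-fat diet. It stood at 1.90, 1.69 and 1.94 FPKM in high-fat libraries, against 1.34, 0.841 and 0.872 FPKM in control libraries. Its mean was 1.85 ± 0.138 FPKM on the high-fat diet and 1.02 ± 0.279 FPKM on the control diet (SD, n = 3 each), a ratio of 1.81 and a log2 ratio of 0.86. The lowest high-fat library was 1.26 times the highest control library, which was replicate 1.

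Dusp14, the phosphatase, had the largest ratio of means of the 3 genes that were higher. It stood at 1.23, 0.971 and 1.14 FPKM in high-fat libraries, against 0.760, 0.437 and 0.451 FPKM in control libraries. Its mean was 1.11 ± 0.132 FPKM on the high-fat diet and 0.550 ± 0.182 FPKM on the control diet (SD, n = 3 each), a ratio of 2.03 and a log2 ratio of 1.02. The diets did not overlap, by a factor of 1.28 between the lowest high-fat and the highest control library. Control replicate 1 again was the highest control, and leaving it out gave a log2 ratio of 1.33.

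Jun, the AP-1 subunit, had the lowest level of the 4 genes and the narrowest spread on the high-fat diet. It stood at 0.762, 0.726 and 0.789 FPKM in high-fat libraries, against 0.522, 0.450 and 0.359 FPKM in control libraries. Its mean was 0.759 ± 0.0316 FPKM on the high-fat diet and 0.444 ± 0.0818 FPKM on the control diet (SD, n = 3 each), a ratio of 1.71 and a log2 ratio of 0.77. The spread relative to the mean was 4.17% on the high-fat diet and 18.4% on the control diet. In bulk islet RNA, a different number of cells of a type and a different amount of RNA per cell cannot be told apart, for Jun as for the other 3 genes.

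**Figure D1:**
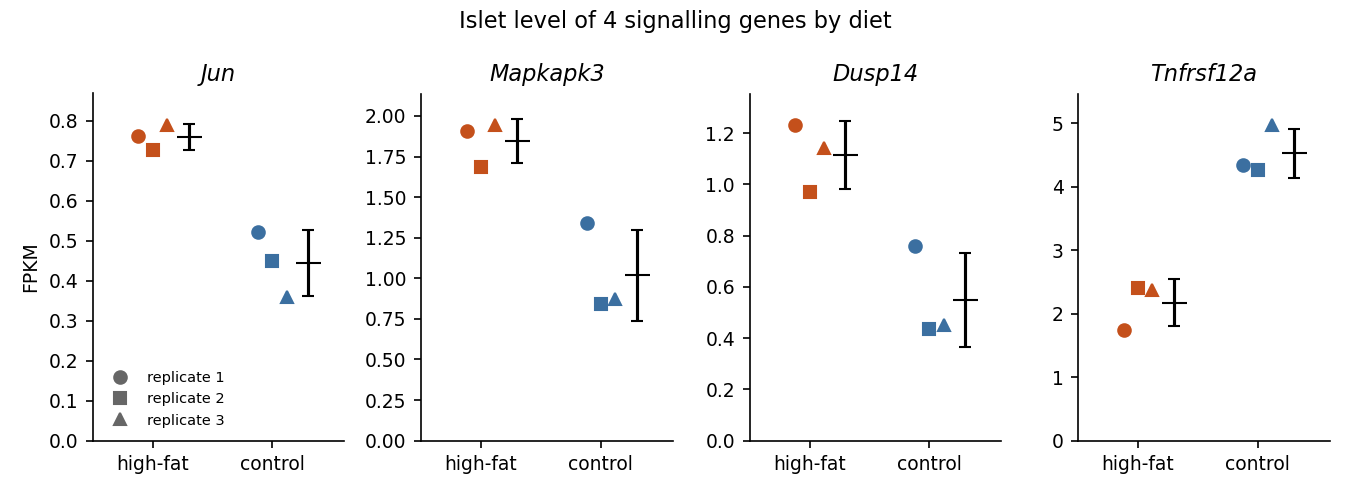
FPKM of Jun, Mapkapk3, Dusp14 and Tnfrsf12a in each of the 6 libraries (points, shape by replicate number, which does not pair libraries), with the mean and SD of each diet beside them (n = 3). The high-fat libraries lie above all control libraries for Jun, Mapkapk3 and Dusp14 and below them for Tnfrsf12a, and control replicate 1 is the highest control library for the first 3 genes.

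All 4 genes had diets that did not overlap, of which 3 were higher and 1 was lower on the high-fat diet. In the whole table, 51 of 54 rows did so (94.4%), namely 33 with the high-fat diet higher (61.1%) and 18 with it lower (33.3%). The rows were picked on this contrast, so nothing is read from either count. The median log2 ratio was 0.82 over the 4 genes and 0.81 over the 54 rows. Among the 36 rows with a higher mean on the high-fat diet, the log2 ratios ran from 0.63 to 3.64 with a median of 1.04, so that Jun, Mapkapk3 and Dusp14 lay below that median. Tnfrsf12a, at -1.06, was also closer to 0 than the median of the 18 lower rows, which was -1.60.

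**Figure D2:**
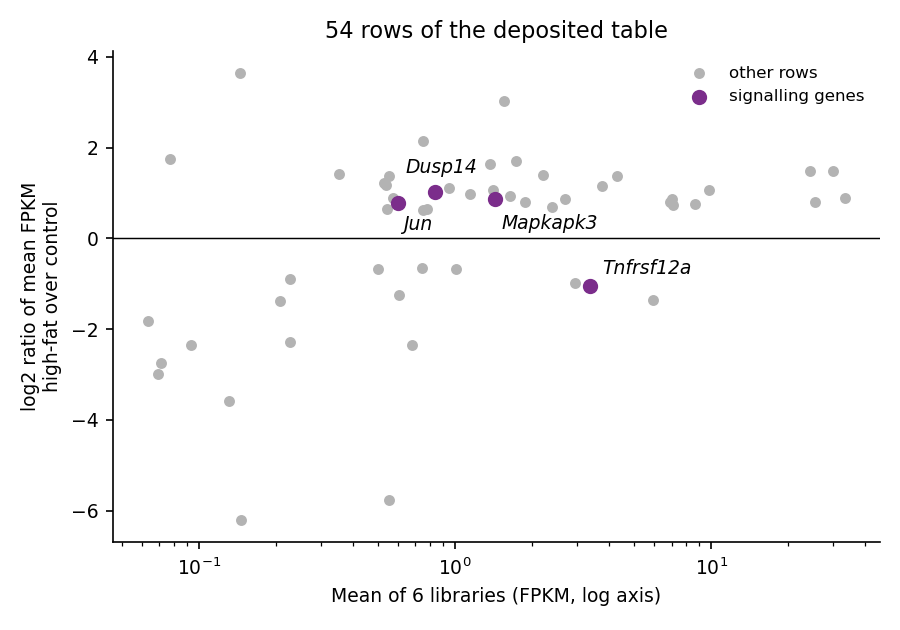
Log2 ratio of mean FPKM, high-fat over control, against the mean level over the 6 libraries (log axis) for the 54 rows. Jun, Mapkapk3 and Dusp14 lie below the median of the higher rows, Dusp14 close to it. Tnfrsf12a is 1 of the 4 lower rows with a mean of at least 1 FPKM.

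By level, the order was Tnfrsf12a, Mapkapk3, Dusp14 and Jun by the mean of each diet, but it was closer at the top on the high-fat diet. In high-fat replicate 1, Mapkapk3 at 1.90 FPKM stood above Tnfrsf12a at 1.75 FPKM, and the ranges of these 2 genes overlapped on the high-fat diet and not on the control diet. At the bottom, Dusp14 and Jun overlapped on the control diet, where Jun was the higher in replicate 2, and not on the high-fat diet. Mapkapk3 stood above Dusp14 in all 6 libraries with no overlap in either diet. In rank among the 54 rows, Tnfrsf12a was 19th from the top by its high-fat mean and 11th by its control mean. Dusp14 was 28th by its high-fat mean and 34th by its control mean.

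Ratios between 2 genes inside a library do not depend on how that library was scaled. The ratio of Jun to Tnfrsf12a was 0.435, 0.302 and 0.333 in the high-fat libraries, against 0.120, 0.105 and 0.0723 in the control libraries. The ratio of Mapkapk3 to Tnfrsf12a was 1.09, 0.702 and 0.821 in the high-fat libraries, against 0.309, 0.197 and 0.175 in the control libraries. The ratio of Dusp14 to Tnfrsf12a was 0.704, 0.404 and 0.482 in the high-fat libraries, against 0.175, 0.103 and 0.0908 in the control libraries. In each of the 3 ratios the diets stood apart. This had to follow from the levels above, since Tnfrsf12a was lower and the other gene higher in every high-fat library. It is no separate support for a difference. The highest ratio was in high-fat replicate 1, the library with the least Tnfrsf12a. The differences of mean log2 ratio, high-fat minus control, were 1.86 for Jun, 1.96 for Mapkapk3 and 2.13 for Dusp14 over Tnfrsf12a. These ratios show an unequal difference between the genes and not which of the 2 differed.

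Among the 3 genes that were higher, the ratios differed less between the diets than the ratios to Tnfrsf12a did. The differences of mean log2 ratio, high-fat minus control, were 0.10 for Mapkapk3 over Jun, 0.27 for Dusp14 over Jun and -0.17 for Mapkapk3 over Dusp14. Mapkapk3 over Jun averaged 2.43 ± 0.0918 on the high-fat diet and 2.29 ± 0.368 on the control diet (SD, n = 3 each), with overlapping libraries. Dusp14 over Jun averaged 1.47 ± 0.140 on the high-fat diet and 1.23 ± 0.242 on the control diet, also overlapping. Mapkapk3 over Dusp14 averaged 1.66 ± 0.102 on the high-fat diet and 1.87 ± 0.0950 on the control diet. Its libraries did not overlap, with 1.74 as the highest high-fat and 1.76 as the lowest control ratio. That gap was smaller than either SD, whereas the means of the diets lay farther apart than either SD.

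**Figure D3:**
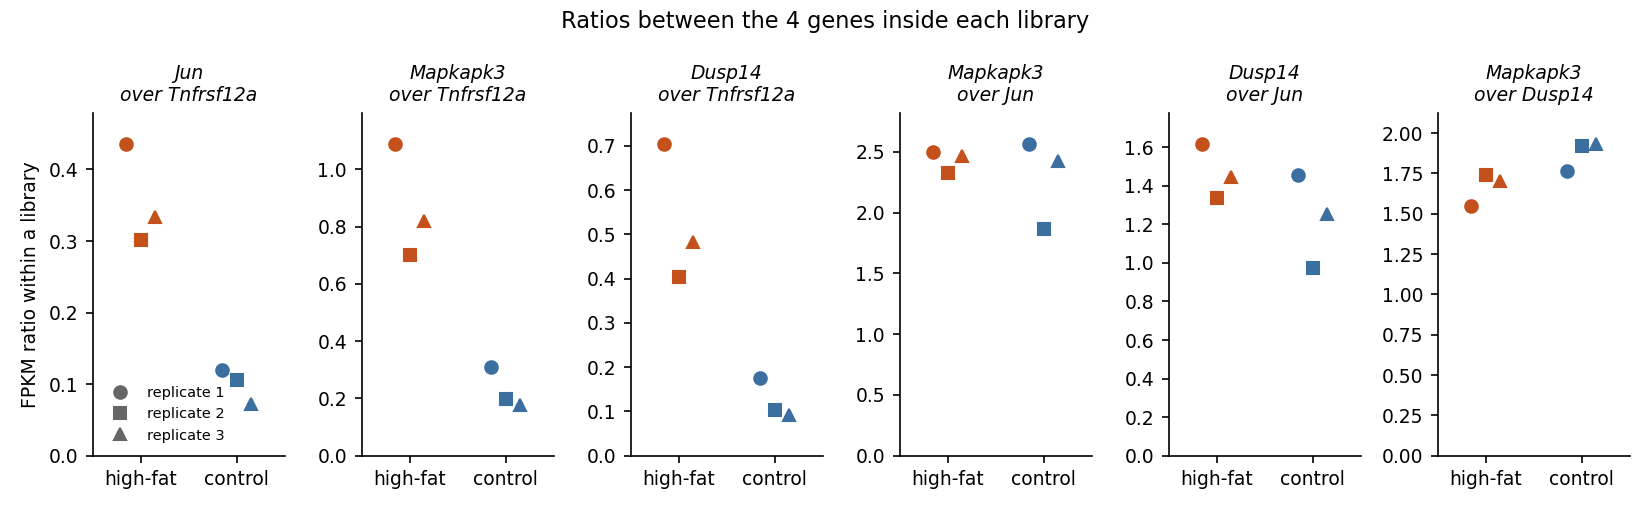
FPKM ratio of 2 genes within each library, by diet (points, shape by replicate number). The 3 ratios to Tnfrsf12a are higher in all high-fat libraries, which follows from the levels of the single genes. The 3 ratios among Jun, Mapkapk3 and Dusp14 differ less between the diets, and of these only Mapkapk3 over Dusp14 has no overlap.

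The libraries differed in level over the table as a whole, and the 3 higher genes shared that pattern. The median FPKM over the 54 rows was 1.27, 0.982 and 1.304 in the high-fat libraries, against 1.09, 0.548 and 0.642 in the control libraries. Control replicate 1 was the highest control library in 46 of the 54 rows, as it was for Jun, Mapkapk3 and Dusp14, and high-fat replicate 2 was the lowest high-fat library in 30 of the 36 higher rows, as for the same 3 genes. Among the 18 lower rows, control replicate 1 was the highest control library in 16, whereas high-fat replicate 2 was the lowest high-fat library in 4, with a tie at the lowest value in another 5. Tnfrsf12a had its highest control value in replicate 3 and its lowest high-fat value in replicate 1. With every library divided by its median over the 54 rows, the median log2 ratio of all rows was 0.12, against 0.81 as deposited, and the log2 ratios were 0.066 for Jun, 0.19 for Mapkapk3, 0.37 for Dusp14 and -1.79 for Tnfrsf12a. Under that scaling the diets overlapped for Jun and Mapkapk3 and stayed apart for Dusp14 and Tnfrsf12a. They stayed apart in 39 of the 54 rows under the same scaling. With the geometric mean of each library in place of its median, the log2 ratios were 0.43, 0.54 and 0.71 for Jun, Mapkapk3 and Dusp14 and -1.42 for Tnfrsf12a, with no overlap in any of the 4 and a median of 0.49 over all rows. How many of the 54 rows had no overlap under this second scaling was not counted, so nothing is read from the lack of overlap in the 4 genes. No scaling tried turned a direction. Since 36 of the 54 picked rows were higher, either scaling can take out part of a higher value and add to a lower one. The part of library level in the differences of Jun, Mapkapk3 and Dusp14 was not tested.

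**Figure D4:**
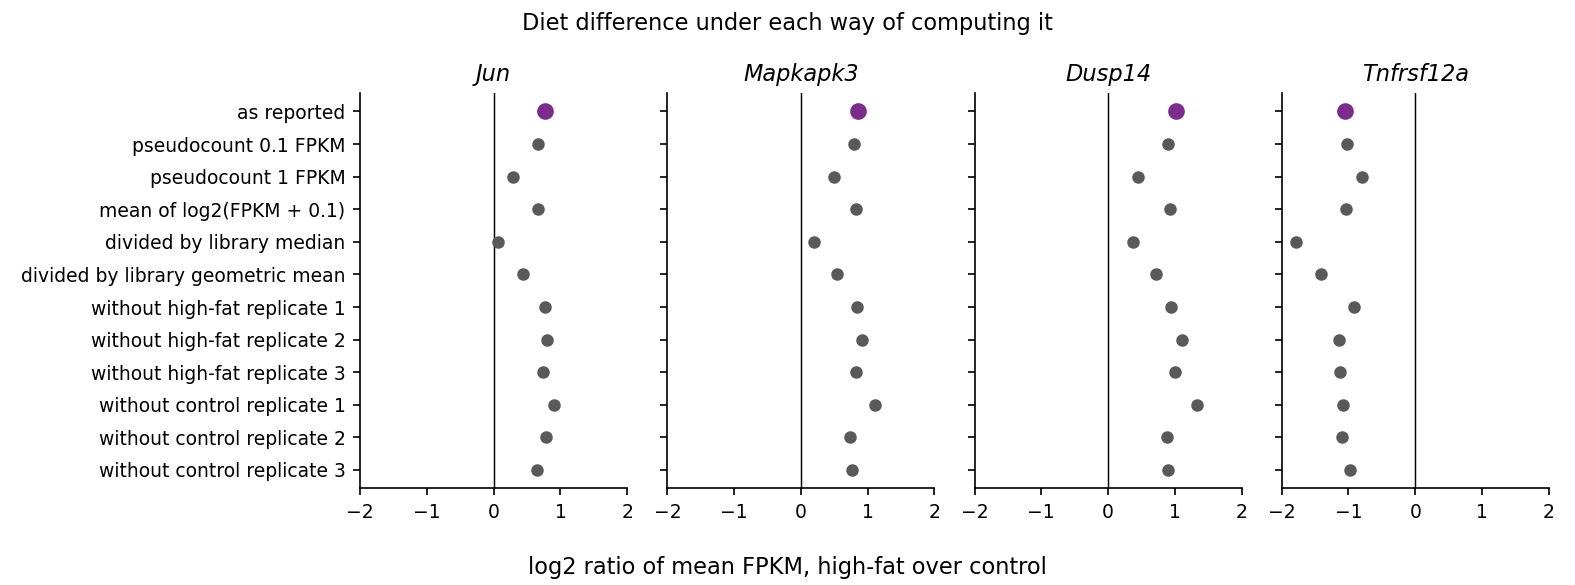
Log2 ratio of mean FPKM, high-fat over control, for each gene as reported (large point) and under each alternative (small points). All values for Jun, Mapkapk3 and Dusp14 are above 0 and all for Tnfrsf12a below 0. Since the diets do not overlap as reported, only the scalings by library median or geometric mean could have turned a sign. Dividing by the library median brings Jun closest to 0, at 0.066.

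The rows nearest in pattern were found by the distance between log2(FPKM + 0.1) values, centred on each gene's mean over the 6 libraries. For Mapkapk3 they were Irf2bp2 (distance 0.15), Aoc2 (0.18) and Dusp14 (0.18). For Dusp14 they were Mapkapk3, Gpr161 (0.24) and Aoc2 (0.28). For Jun they included Gnb1l (0.23) and Aoc2 (0.25), with Mapkapk3 6th and Dusp14 11th. Irf2bp2, a transcriptional co-regulator, stood at 8.71, 8.07 and 9.54 FPKM in high-fat libraries, against 6.17, 4.54 and 4.44 FPKM in control libraries. Control replicate 1 was above the other controls, as in Mapkapk3 and Dusp14, and as in 46 of the 54 rows of the table. For Tnfrsf12a the nearest rows were farther away, with Fcrlb at 0.57, Selenbp1 at 0.64 and Upk1b at 0.68. Selenbp1, a selenium-binding protein gene, stood at 2.07, 1.999 and 1.81 FPKM in high-fat libraries, against 4.50, 3.88 and 3.34 FPKM in control libraries. Fcrlb and Upk1b were listed at 0 in 2 of the 3 high-fat libraries, so their distance depends on the added 0.1 FPKM.

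**Figure D5:**
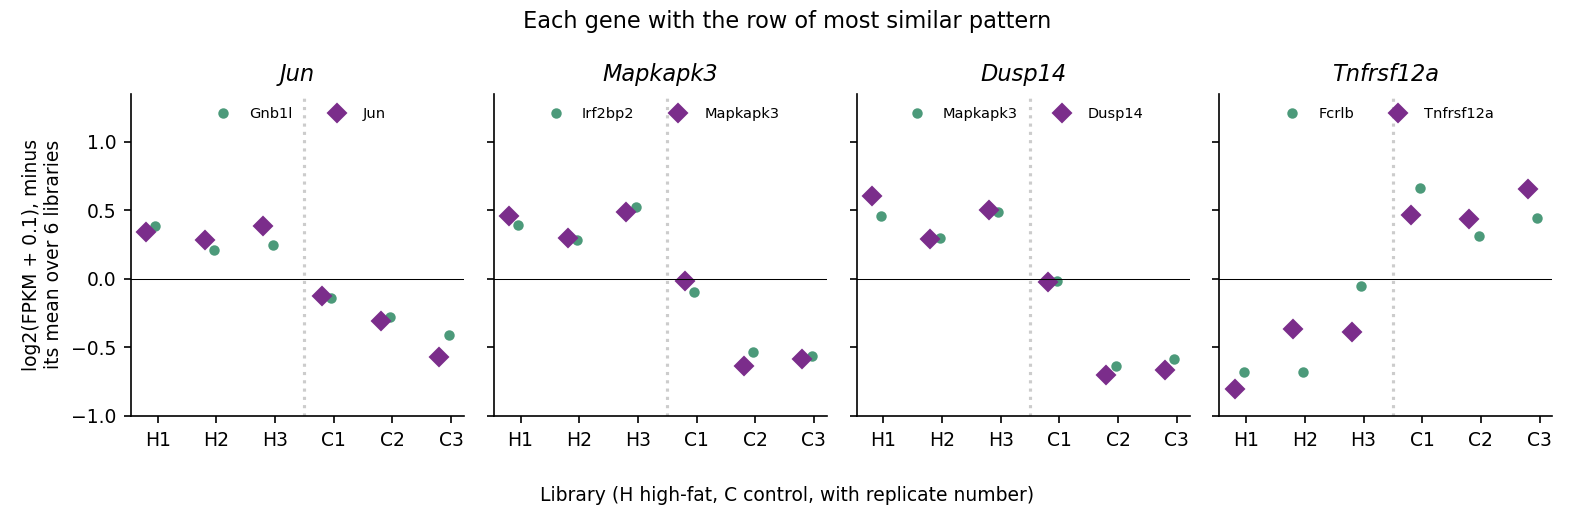
Log2(FPKM + 0.1) minus its mean over the 6 libraries, for each of the 4 genes (diamonds) and its nearest row (circles); H and C mark high-fat and control libraries. Points of Jun, Mapkapk3 and Dusp14 lie close to those of their nearest row in every library, and those of Tnfrsf12a lie farther from Fcrlb. Each nearest row was chosen for its small distance among rows picked on this contrast, so nothing is read from the closeness.

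Each of the 4 genes was the only row from its own pathway list. Of 101 genes listed for AP-1, MAP kinases and their kinases, MAPK-activated kinases, MAPK phosphatases, TWEAK and TNF receptors, NF-kappaB and the immediate early and stress response, 5 are rows of the table. The high-fat mean was higher in 4 of them and lower in 1. Over the whole table it was higher in 36 of 54 rows and lower in 18, so nothing is read from the 5. The fifth listed gene in the table is Cdkn1a, the p21 inhibitor of cyclin-dependent kinases, a known stress response gene. It stood at 7.22, 6.78 and 4.48 FPKM in high-fat libraries, against 1.54, 2.96 and 2.65 FPKM in control libraries, and unlike Jun, Mapkapk3 and Dusp14 its lowest control library was replicate 1. Of the 14 AP-1 subunits listed, Jun alone is a row. None of the 21 MAP kinases and their kinases or the 11 NF-kappaB genes is a row, nor is Tnfsf12, the gene of TWEAK itself. Those genes were not analysed here, and their absence from a picked table says nothing of their level.

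Of 46 markers of islet and other pancreatic cell types, Upk1b alone, from the 5 mesothelial markers, is a row, so the islet identity of the libraries could not be checked from hormone or beta cell genes. Upk1b was listed at 0, 0 and 0.0464 FPKM in high-fat libraries, against 0.182, 0.0709 and 0.117 FPKM in control libraries, lower on the high-fat diet as Tnfrsf12a was. The part of non-endocrine cells in the Tnfrsf12a difference was not tested.

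The authors' own statistics accompany each row. In the authors' deposited table the p-values were 8.7e-05 for Mapkapk3, 0.00084 for Dusp14, 0.0058 for Jun and 0.0090 for Tnfrsf12a, against a highest of 0.00999 over all 54 rows. The labels and headers do not say which test gave them. The effect sizes in the authors' deposited table were 3.76 for Mapkapk3, 3.55 for Dusp14, 5.08 for Jun and -6.22 for Tnfrsf12a. Recomputed as the difference of means over the root mean square of the SDs of both diets, all 54 effect sizes came out within 0.1%. The order of the 2 measures differed. Tnfrsf12a was 3rd of 54 by size of effect and 50th by p-value, and Mapkapk3 was 20th by size of effect and 2nd by p-value. Over the 54 rows, which share the same 6 libraries, Spearman's rho between deposited p-value and size of effect was -0.17. The picked rows cover a limited range of both measures, with low p-values only and no size of effect below 1.68. This rho therefore says nothing of genes outside the table.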

How the data were processed

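RNA of islets from 6 mouse samples, 3 per diet, had been sequenced from total RNA libraries made with a Vazyme kit, per the labels' protocols. The submitters' processing notes name HISAT2 2.1.0, StringTie 1.3.3 and Trimmomatic 0.36, with the GRCm38 build, and give no order, annotation or strand setting. The deposited table holds 1 FPKM column per sample. It also holds the group means, SDs, p-values, log2 fold changes, scores and effect sizes computed by the authors, for 54 rows picked by a rule that is not stated.

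Samples were grouped by the diet label, and columns were matched to samples by title. Ensembl identifiers were matched to symbols for all 54 rows. Log2 ratios of the diets' mean FPKM (no pseudocount) were computed in Python 3.11.15 with pandas 2.3.3, and they equal the log2 fold changes the authors deposited. No test was run: the genes were chosen from this same contrast, and genes and lists were chosen with earlier results of these data known. Named were the 4 genes, every row in a pathway or marker list, and the 3 rows nearest in pattern to each gene (pseudocount 0.1 FPKM), of which 1 is not reported here. Functions were tested on simulated data. A planned comparison of protein sequences was not made, since no protein table was used here.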

Additional observations from a re-analysis of the deposited data

How the results depend on the processing

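The log2 ratios of the 4 genes kept their direction under every alternative run. Since the diets did not overlap as reported, only the library scalings could have turned a direction. A pseudocount of 1 FPKM gave 0.28 for Jun, 0.50 for Mapkapk3, 0.45 for Dusp14 and -0.80 for Tnfrsf12a; a pseudocount brings any ratio closer to 1. Dividing each library by its median over the 54 rows gave 0.066, 0.19, 0.37 and -1.79 for the same genes. It left 2 of 4 genes, and 39 of the 54 rows, with diets that did not overlap. Dividing by the geometric mean gave 0.43 for Jun, 0.54 for Mapkapk3 and -1.42 for Tnfrsf12a, and left Dusp14, at 0.71, within its spread between replicates. Of 69 recomputed values, 56 stayed within that spread or, for counts, within 1.5 times, and 13 did not. Most of the 69 came from leaving out 1 library, which with 3 libraries per diet can hardly shift a mean beyond that spread. The tally is therefore no measure of stability. Among rows with a mean of at least 1 FPKM, 24 of 26 had diets that did not overlap, against 51 of all 54 rows. This count is 1 of the 13, but with 26 rows left it could not have stayed within 1.5 times of 51. Leaving out 1 library gave log2 ratios of 0.64 to 0.91 for Jun, 0.74 to 1.11 for Mapkapk3, 0.88 to 1.33 for Dusp14 and -1.14 to -0.92 for Tnfrsf12a. It gave differences of log2 ratio to Tnfrsf12a of 1.64 to 2.01 for Jun, 1.79 to 2.20 for Mapkapk3 and 1.91 to 2.42 for Dusp14. No paired analysis was possible because the replicate numbers are only accession order. The number of fragments behind each value is unknown, also for Jun and Dusp14, whose means over the 6 libraries, 0.601 and 0.832 FPKM, lie below 1 FPKM.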
